A study of Mus musculus with 112 samples.

Results

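The cardiac calcification and phosphate genes are 8 genes that act on the balance between mineral-forming phosphate and its inhibitors: Abcc6, Enpp1, Alpl, Slc20a1, Slc20a2, Mgp, Spp1 and Runx2. They are given by name, with earlier results of these data known. Each gene was read from its brightest probe set with that symbol alone, and 5 of the 8 members (Abcc6, Alpl, Slc20a1, Slc20a2 and Mgp) had such a probe set among the 19938 genes tested. Enpp1, which makes pyrophosphate from extracellular ATP, Spp1, which encodes the phosphoprotein osteopontin, and Runx2, the master transcription factor of bone-forming cells, are not analysed here.

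Hydroxyapatite forms where phosphate and calcium exceed what inhibitors can hold in solution, and inorganic pyrophosphate is the main small inhibitor. Abcc6 promotes the release of ATP from which pyrophosphate is made, chiefly in the liver, tissue-nonspecific alkaline phosphatase (Alpl) destroys pyrophosphate, the sodium-phosphate cotransporters Slc20a1 and Slc20a2 carry phosphate into cells, and matrix Gla protein (Mgp) is a vitamin K-dependent inhibitor secreted by vascular smooth muscle cells and other mesenchymal cells. Inbred mouse strains differ in dystrophic calcification of the heart: DBA/2, C3H, BALB/c and 129S1 mice are known for it, C57BL/6 mice for resistance, and the Abcc6 gene on chromosome 7 is the main known locus.

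The hearts came from male mice of 7 strains: C57BL/6J (C57BL6/J in the labels), BALB/cJ (Balbc/J in the labels), CBA/J, C3H/HeJ, 129S1/SvImJ, DBA/2J and B6C3F1/J, the hybrid of C57BL/6J and C3H/HeJ. All mice reached the facility at 6 weeks of age and ate 84 kcal of a purified diet per week until 8 weeks of age. They then stayed on the control diet or went on to caloric restriction (CR), with 8 mice in each of the 14 strain-by-diet groups, and were killed at 22 weeks of age after an overnight fast. No group carried an allele or agent beyond its strain background and diet. CR food was lowered once more in 129S1/SvImJ and C57BL/6J, and BALB/cJ mice were fed more than the other strains in both diets, so the size of the restriction was not the same in all strains. No heart was examined for mineral in the data used here, and a strain known for calcification is a label and not a measured outcome.

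Each mouse gave 1 Affymetrix Mouse Gene 1.0 ST array, and all values below are log2 signals or differences between log2 signals of the same probe set. Of the 112 arrays, 1 (DBA/2J CR replicate 7) correlated with the mean of the others at only 0.238 and was left out, so that group has 7 mice. The authors left a mouse of that group out too. Another 8 arrays stood apart from the rest to a lesser degree, with correlations of 0.889 or more. The ventricular cardiomyocyte markers had a mean signal of 12.7 over the hearts of the fit, and all 8 of them were above the median gene. The 8 atrial markers were bimodal: 75 hearts had an atrial marker mean of 7.61 or less (atrial-poor) and 36 hearts one of 8.44 or more (atrial-rich). The atrial-rich hearts were spread unevenly, with 10 of 16 in C57BL/6J, 7 each in C3H/HeJ and B6C3F1/J, 5 in BALB/cJ, 4 of 15 in DBA/2J, 3 in CBA/J and 0 of 16 in 129S1/SvImJ. The white adipocyte markers were also highest in C57BL/6J, by 1.00 to 1.38 over the other strains. Against C57BL/6J, 7 of 8 atrial markers were called lower in 129S1/SvImJ, 6 in CBA/J, 3 in DBA/2J and 2 in BALB/cJ. No atrial marker was called in C3H/HeJ or B6C3F1/J. Of 7 white adipocyte markers 5 were lower in every strain. Of 8 macrophage markers 7 were lower in 129S1/SvImJ and CBA/J, 5 in B6C3F1/J, 4 in C3H/HeJ, 3 in BALB/cJ and 0 in DBA/2J. Of all genes, 17.9% were lower in 129S1/SvImJ, 18.5% in BALB/cJ, 15.8% in C3H/HeJ, 14.6% in CBA/J, 16.2% in DBA/2J and 13.3% in B6C3F1/J. The atrial marker mean ran from 6.73 to 6.96 over the 129S1/SvImJ hearts and from 6.60 to 11.2 over those of C57BL/6J. In a bulk heart sample, fewer cells of a type and less RNA per cell cannot be told apart.

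Promoters were available for only 2 of the 5 measured members, Alpl and Slc20a1, and both are shown for that reason alone. The sequences are the 150 bases just before the annotated start in RefSeq, build GRCm38.p6, 5′ to 3′ on the gene's strand. Capitals mark matches to the GC box GGGCGG and the E-box CACGTG on either strand. The Alpl window is chr4:137796385-137796534 on the minus strand and the Slc20a1 window is chr2:129198623-129198772 on the plus strand.
Alpl: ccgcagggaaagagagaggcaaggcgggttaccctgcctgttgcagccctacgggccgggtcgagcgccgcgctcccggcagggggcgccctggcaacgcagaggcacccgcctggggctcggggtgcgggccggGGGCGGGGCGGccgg
Slc20a1: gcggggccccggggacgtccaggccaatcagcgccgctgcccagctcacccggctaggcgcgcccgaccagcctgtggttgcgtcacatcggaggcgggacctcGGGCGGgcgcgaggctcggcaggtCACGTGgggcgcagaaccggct
The Alpl window held 2 GC boxes that share a base and the Slc20a1 window held 1 GC box and 1 E-box. Neither held the TATA box TATAAA. Over 32851 promoters, the same window held a GC box in 28.6%, at least 2 GC boxes in 12.8%, an E-box in 4.3% and a TATA box in 7.57%. GC content was 78.7% for Alpl and 76.0% for Slc20a1, against a median of 54.0%. These letter matches are descriptions of the windows and were not tied to any difference between strains.

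The question for each member was whether its cardiac signal differed between the strains, and above all between C57BL/6J and the others. Averaged over both diets, Alpl was higher than in C57BL/6J in all 6 other strains, Slc20a2 in 5, Abcc6 in 5 and Slc20a1 in 4, while Mgp was lower in 129S1/SvImJ. In the F test among the 7 strains all 5 members were called at an adjusted p under 0.05 (limma, Benjamini-Hochberg over all genes), where 75.6% of all genes were called, so that strain differences as such were not particular to these genes. The strain means of Mgp spanned 1.09 on the log2 scale (2.12-fold), those of Alpl 1.06 (2.09-fold), Slc20a1 0.88 (1.84-fold), Slc20a2 0.79 (1.73-fold) and Abcc6 0.30 (1.23-fold).

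The 6 comparisons share the C57BL/6J arrays. In 129S1/SvImJ, 4 members were higher and 1 lower, where 42.1% of all genes were called, 24.2% higher and 17.9% lower. In BALB/cJ, 4 members were higher (42.8% of all genes called, 24.3% higher). The same number was higher in C3H/HeJ, where 38.3% of all genes were called and 22.5% were higher, and in DBA/2J, where the shares were 41.0% and 24.9%. In CBA/J 2 members were called, both higher, with 35.6% of all genes called. The hybrid B6C3F1/J also had 2, with 28.4% of all genes called and 15.1% higher. The median difference over the 5 members ran from 0.12 in B6C3F1/J and 0.22 in CBA/J to 0.51 in BALB/cJ, whereas the median over all genes ran from -0.01 to 0.05. Only 5 genes stand behind each of these counts, and they describe the members without a test of the list.

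**Figure D1:**
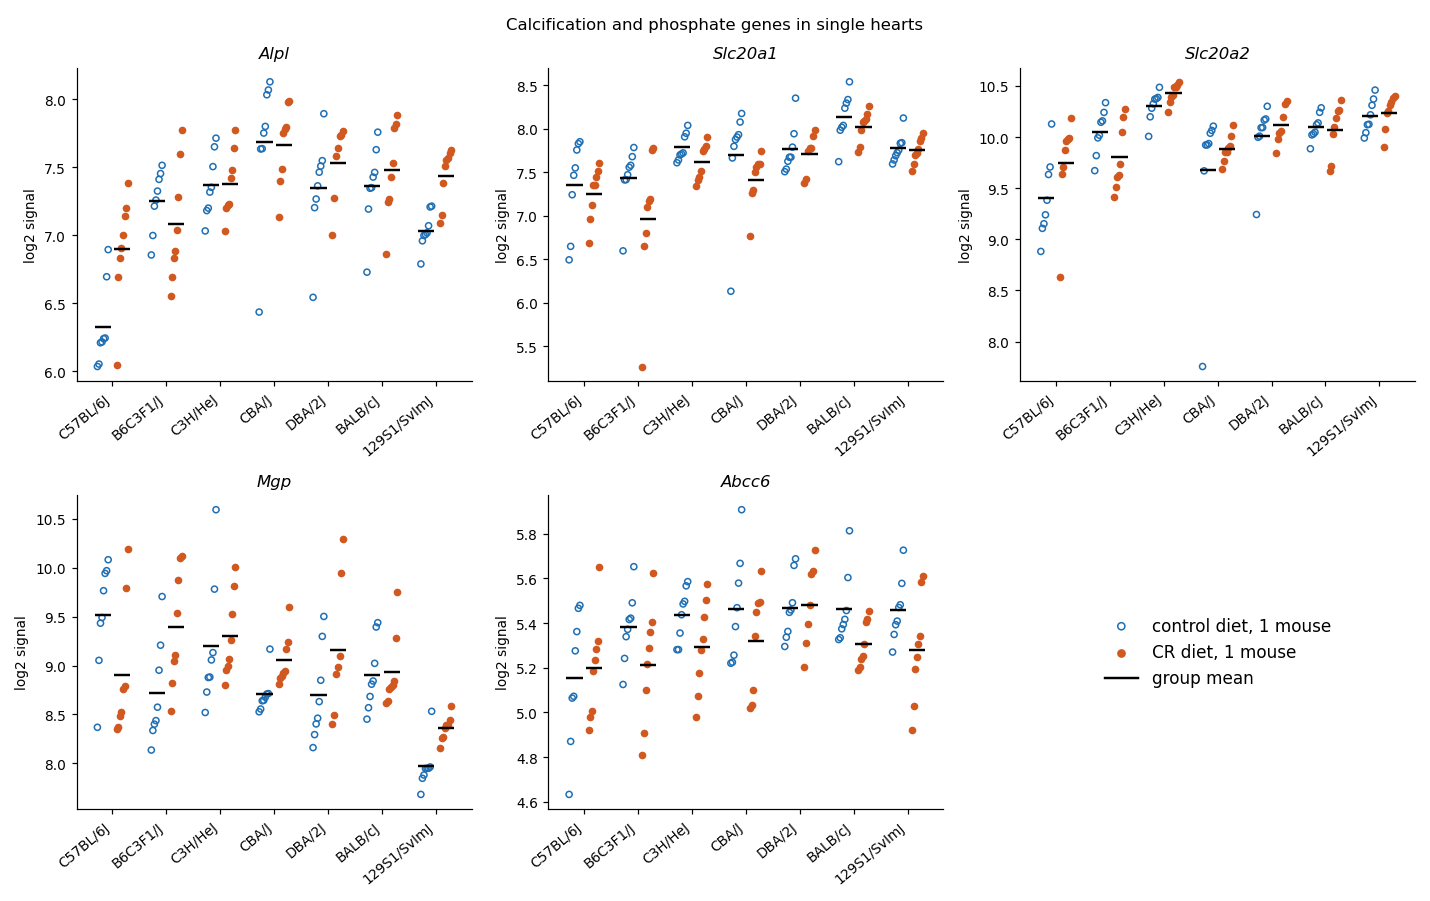
Log2 signal of each measured member in every heart of the fit (1 point per mouse), by strain on the horizontal axis and split by diet, with the group mean as a bar. Alpl points of C57BL/6J, from 6.03 to 7.38, sit low against the other strains, Mgp points of 129S1/SvImJ stay at or below 8.59, and the ranges of all strains overlap for Abcc6.

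Alpl, the phosphatase that removes pyrophosphate (probe set 10517587, chromosome 4, 137741731 to 137796384 in GRCm38.p6), had its lowest values in C57BL/6J. The 16 C57BL/6J hearts ran from 6.03 to 7.38 with a median of 6.69. In CBA/J the lowest was 6.43, the median 7.77 and the highest 8.13, and in DBA/2J they were 6.54, 7.51 and 7.89. BALB/cJ hearts ran from 6.73 to 7.88 with a median of 7.43. All 16 hearts of 129S1/SvImJ, BALB/cJ and C3H/HeJ were above the C57BL/6J median, and 14 of 16 CBA/J hearts were above every C57BL/6J heart. The corresponding counts were 9 in BALB/cJ, 9 of 15 in DBA/2J, 7 in C3H/HeJ, 6 in 129S1/SvImJ and 5 in B6C3F1/J, so the ranges overlapped in every strain.

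The fitted Alpl difference from C57BL/6J was 1.06 ± 0.11 (SE) in CBA/J, or 2.09-fold, with an adjusted p of 1.75e-13. It was 0.83 in DBA/2J (adjusted p = 3.51e-09) and 0.81 in BALB/cJ (adjusted p = 3.69e-09). C3H/HeJ followed with 0.76 (adjusted p = 3.77e-08), 129S1/SvImJ with 0.62 (adjusted p = 3.22e-06) and the hybrid with 0.56 (adjusted p = 6.27e-05), all by limma. Along the order of the strain means, the step from C57BL/6J to B6C3F1/J was the only one between neighbours that passed the test. In control hearts alone the differences were larger, between 0.71 (129S1/SvImJ) and 1.36 (CBA/J), and all 6 were called. In CR hearts they ran from 0.18 in B6C3F1/J, which was not called, to 0.76 in CBA/J.

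The Alpl signal also went with the makeup of the heart sample. In the 75 atrial-poor hearts Alpl had a median of 7.48 and in the 36 atrial-rich hearts 7.02. Among the 6 atrial-poor C57BL/6J hearts the median was 6.96, with values from 6.69 to 7.38. The atrial-poor medians of the other strains were 7.18 in 129S1/SvImJ, 7.32 in B6C3F1/J, 7.48 in C3H/HeJ, 7.53 in BALB/cJ, 7.58 in DBA/2J and 7.80 in CBA/J. C57BL/6J had the lowest Alpl median among these hearts, a division made after the values were seen and given without a test. Its 6 atrial-poor hearts were 5 CR and 1 control, against 6 CR and 7 control in CBA/J. Diet was thus not balanced between the strains in this division. In a fit that took the atrial, white adipocyte, smooth muscle and fibroblast marker mean of each array as covariates, Alpl was still called higher in 5 strains, from 0.28 in B6C3F1/J to 0.71 in CBA/J. The share of all genes called in that fit was 23.0% to 27.5%. In 129S1/SvImJ the Alpl difference was 0.17 with an adjusted p of 0.246. These covariate values are for both diets together. Of the C57BL/6J control hearts 7 of 8 were atrial-rich, the most of any group. Over all alternative settings the lowest control-heart difference was 0.12 in 129S1/SvImJ, which lost its call in 4 of 23 settings. In the other strains the lowest ran from 0.42 in B6C3F1/J to 0.82 in CBA/J, and all stayed called.

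**Figure D2:**
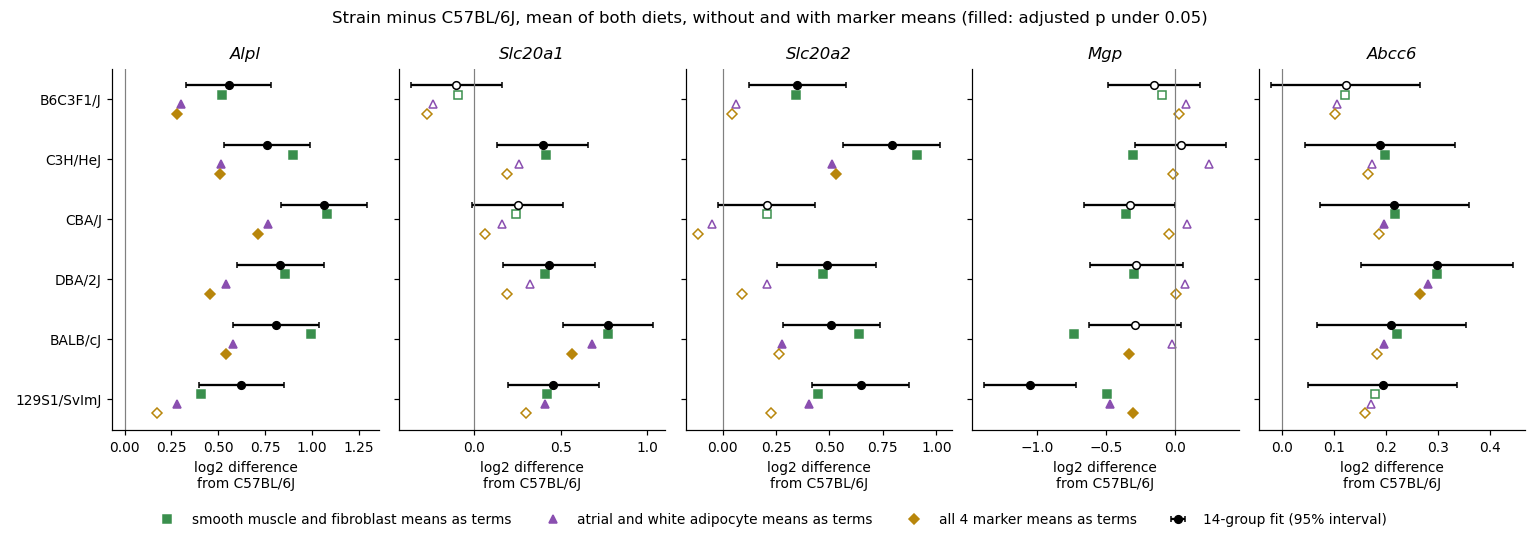
Difference in log2 signal from C57BL/6J for each member and strain, averaged over both diets, with 95% confidence intervals from limma as bars and a line at 0. All 6 Alpl intervals lie above 0, the Mgp interval of 129S1/SvImJ lies far below it (-1.38 to -0.72), and the Abcc6 differences stay between 0.12 and 0.30.

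Slc20a1, one of the widely expressed carriers of phosphate into cells (probe set 10475990, chromosome 2, 129198773 to 129211615), was highest in BALB/cJ. BALB/cJ hearts ran from 7.62 to 8.54 with a median of 8.08, against 6.49 to 7.85 with a median of 7.40 in C57BL/6J. Of 16 BALB/cJ hearts, 13 were above every C57BL/6J heart, and under CR the 8 BALB/cJ hearts (7.73 to 8.26) did not overlap the 8 C57BL/6J hearts (6.69 to 7.61). Of all genes, 6.58% had groups apart in that comparison.

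The Slc20a1 difference was 0.77 ± 0.13 (SE) in BALB/cJ with an adjusted p of 5.15e-07. It was 0.46 in 129S1/SvImJ (adjusted p = 0.00266), 0.43 in DBA/2J (adjusted p = 0.00586) and 0.39 in C3H/HeJ (adjusted p = 0.0117). CBA/J had 0.25 (95% interval -0.01 to 0.51) and B6C3F1/J -0.10 (95% interval -0.36 to 0.16), and neither was called by limma. The CBA/J value rests on control replicate 1, an array that stands apart and has a Slc20a1 signal of 6.13 where the group median is 7.89. Without it the difference was 0.36 with an adjusted p of 0.0116. With the 4 marker means as covariates only BALB/cJ was still called, at 0.57 (adjusted p = 0.0155). Within control hearts, without covariates, only BALB/cJ was called (0.78). Within CR hearts BALB/cJ (0.77) and 129S1/SvImJ (0.49) were called.

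Slc20a1 was also the only member for which the hybrid differed from the mean of its parents, where 23.3% of all genes were called. The B6C3F1/J mean of 7.20 lay 0.30 below the parental mean, with an adjusted p of 0.0427. The hybrid held the lowest Slc20a1 value among the arrays of the fit, 5.27 in CR replicate 2, an array that stands apart, next to a group median of 7.14. Without that array the difference was -0.18 (adjusted p = 0.228), and without all arrays that stand apart it was -0.14 (adjusted p = 0.246).

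Slc20a2, the second such carrier, whose loss is known to calcify small vessels of the brain (probe set 10570837, chromosome 8, 22476700 to 22569616), was highest in C3H/HeJ. C3H/HeJ hearts ran from 10.01 to 10.54 with a median of 10.38, and 15 of 16 were above every C57BL/6J heart. The C57BL/6J hearts ran from 8.63 to 10.18 with a median of 9.67. The values of 129S1/SvImJ were close to those of C3H/HeJ, from 9.90 to 10.46 with a median of 10.25, and 10 of 16 were above every C57BL/6J heart. Under CR the C3H/HeJ hearts (10.25 to 10.54) stood apart from those of C57BL/6J (8.63 to 10.18), where 6.54% of all genes had groups apart.

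The fitted Slc20a2 difference was 0.79 ± 0.11 (SE) in C3H/HeJ (adjusted p = 1.05e-08) and 0.65 in 129S1/SvImJ (adjusted p = 1.25e-06). BALB/cJ had 0.51 (adjusted p = 0.000109), DBA/2J 0.49 (adjusted p = 0.000308) and B6C3F1/J 0.35 (adjusted p = 0.0134). CBA/J had 0.21 with a 95% interval from -0.02 to 0.43, and without control replicate 1, whose signal of 7.76 was the lowest among the arrays of the fit, it had 0.34 with an adjusted p of 0.00113. The ventricular markers were higher than in C57BL/6J in every strain, by 0.10 in CBA/J to 0.34 in 129S1/SvImJ. With the 4 other marker means as covariates only C3H/HeJ was still called, at 0.53 (adjusted p = 0.000445), and the CBA/J value turned to -0.12. Within control hearts, without covariates, all strains but CBA/J were called, from 0.61 in DBA/2J to 0.90 in C3H/HeJ. Within CR hearts only C3H/HeJ (0.68) and 129S1/SvImJ (0.49) were called.

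Mgp, the secreted mineral inhibitor (probe set 10548879, chromosome 6, 136872435 to 136875823), was lowest in 129S1/SvImJ. There it ran from 7.68 to 8.59 with a median of 8.21, and 10 of 16 hearts were below every C57BL/6J heart. C57BL/6J hearts ran from 8.35 to 10.19 with a median of 9.24, and C3H/HeJ held the highest value, 10.59. No 129S1/SvImJ heart reached the C57BL/6J median. The difference was -1.05 ± 0.17 (SE), 2.07-fold lower, with an adjusted p of 1.07e-07. In the order of strain means the step from 129S1/SvImJ up to CBA/J, 0.72 with an adjusted p of 0.000463, passed the test (24.5% of all genes were called between these strains). No step between the other 6 strains passed.

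No other strain differed from C57BL/6J in Mgp over both diets. The differences were -0.33 in CBA/J (95% interval -0.66 to 0.00), -0.29 in BALB/cJ (-0.62 to 0.04), -0.28 in DBA/2J (-0.62 to 0.06), -0.15 in B6C3F1/J (-0.49 to 0.18) and 0.04 in C3H/HeJ (-0.29 to 0.37). In control hearts alone Mgp was called lower in 5 strains, with differences of -1.54 in 129S1/SvImJ and -0.61 to -0.81 in BALB/cJ, B6C3F1/J, CBA/J and DBA/2J. In CR hearts none was called.

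The Mgp signal was higher where the atrial markers were higher. Its median was 8.59 in the 75 atrial-poor hearts and 9.57 in the 36 atrial-rich hearts. C57BL/6J control hearts had the highest atrial marker mean, 9.97, and 129S1/SvImJ hearts of both diets had the lowest, a difference of -2.10 over both diets. Among atrial-poor hearts the Mgp medians were 8.21 in 129S1/SvImJ, 8.43 in C57BL/6J (n = 6, of which 5 CR and 1 control), 8.49 in DBA/2J, 8.53 in B6C3F1/J, 8.71 in CBA/J, 8.76 in BALB/cJ and 8.88 in C3H/HeJ. With the 4 marker means as covariates Mgp was still called lower in 129S1/SvImJ, at -0.30 (adjusted p = 0.00176), and was lower in BALB/cJ as well, at -0.33 (adjusted p = 0.00373). With the macrophage and lymphocyte marker means as covariates the 129S1/SvImJ value was -0.24 with an adjusted p of 0.149, and 0 of 5 members were called in that strain, where 23.5% of all genes were. With smooth muscle and fibroblast markers as the only covariates Mgp was lower than in C57BL/6J in 5 strains, from -0.30 in C3H/HeJ and DBA/2J to -0.73 in BALB/cJ.

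**Figure D3:**
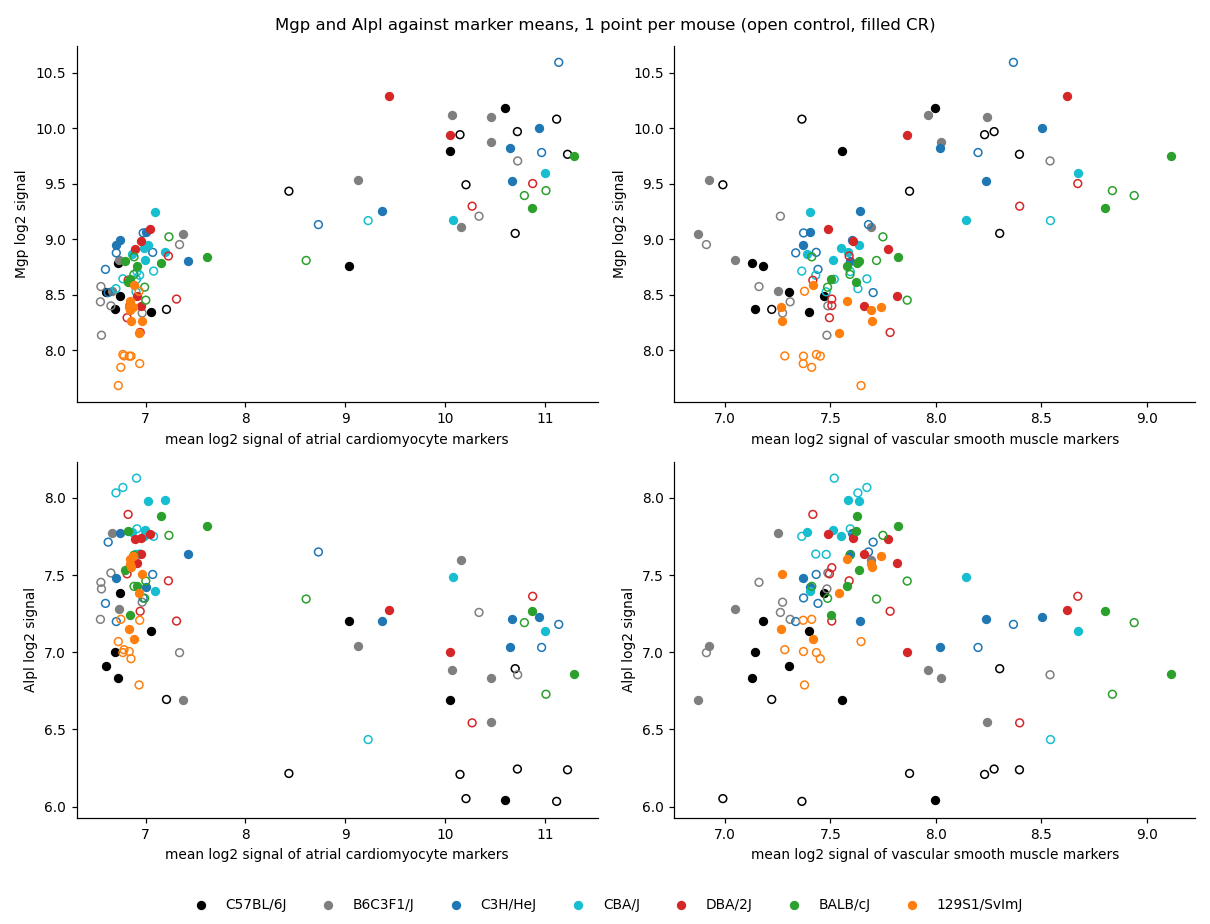
Log2 signal of Mgp and of Alpl in each heart (vertical axes) against the mean log2 signal of the atrial cardiomyocyte markers (left) or the vascular smooth muscle markers (right) in the same heart, 1 point per mouse, coloured by strain, open for control and filled for CR. On the left, hearts form an atrial-poor cluster up to 7.61 and an atrial-rich one from 8.44, Mgp is higher in the second and Alpl is lower, and all 129S1/SvImJ hearts lie in the first.

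Abcc6, the transporter gene (probe set 10563447, chromosome 7, 45974110 to 46030491), had a mean signal of 5.35 in these hearts, below the 5.75 of the median gene. Its strain means spanned less than those of the other members. C57BL/6J hearts ran from 4.63 to 5.65 with a median of 5.21, and DBA/2J hearts from 5.20 to 5.73 with a median of 5.46. In DBA/2J 14 of 15 hearts were above the C57BL/6J median, yet only 3 were above every C57BL/6J heart.

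The Abcc6 difference was 0.30 ± 0.07 (SE) in DBA/2J with an adjusted p of 0.000508. It was 0.22 in CBA/J (adjusted p = 0.0134), 0.21 in BALB/cJ (adjusted p = 0.0133), and 0.19 in both 129S1/SvImJ (adjusted p = 0.0238) and C3H/HeJ (adjusted p = 0.0306). B6C3F1/J had 0.12 with a 95% interval from -0.02 to 0.27. The C57BL/6J mean was the lowest of the 7 strains. No neighbouring step in the order of strain means passed the test. With the 4 marker means as covariates only DBA/2J was still called, at 0.27 (adjusted p = 0.0357), and the F test among strains gave an adjusted p of 0.305. Without covariates, control hearts alone gave calls in the same 5 strains, from 0.28 in C3H/HeJ to 0.31 in DBA/2J. In CR hearts only DBA/2J was called, at 0.28 (limma, adjusted p = 0.0399). The other CR differences ran from 0.01 in B6C3F1/J to 0.12 in CBA/J. The F test for strain by diet did not call Abcc6 (adjusted p = 0.794). Array probes carry the reference sequence, and probe-level values were not used here, so whether base differences between strains alter binding of the Abcc6 probes was not tested.

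Of the 5 measured genes on each side of Abcc6 on chromosome 7, 4 differed between DBA/2J and C57BL/6J, a share close to the 41.0% of all genes called in that comparison. Ush1c, which encodes a scaffold protein of the inner ear and retina, was higher in DBA/2J by 1.20 (adjusted p = 8.18e-15), Emp3 by 0.69 and Kdelr1 by 0.27, and Kcnj11, the pore of the ATP-sensitive potassium channel, was lower (-0.42). Ush1c was also higher in C3H/HeJ (1.44), BALB/cJ (1.00), 129S1/SvImJ (0.92) and B6C3F1/J (0.78) and had a difference of 0.10 in CBA/J, which was not called. The other neighbours in DBA/2J ran from -0.14 for Syngr4 to 0.15 for Nomo1, and Tmem143, Ccdc114, Abcc8 and Otog lay between.

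The same comparisons were made within each diet. In control hearts 22 of 30 member-by-strain differences were called, where the shares of all genes called were 36.6% for 129S1/SvImJ, 34.0% for BALB/cJ, 28.5% for C3H/HeJ, 31.1% for CBA/J, 30.7% for DBA/2J and 26.6% for B6C3F1/J. In CR hearts 10 of 30 were called, where the shares were 20.1%, 24.6%, 19.6%, 15.4%, 24.2% and 16.3% in the same order. The share of all genes called was thus lower in CR hearts too, and the difference between the 2 counts was not tested. The two-sided exact permutation test of 8 against 8 control mice, over 12870 splits, gave a p under 0.05 in 24 of the 30 control comparisons before any adjustment. It was run for the members only, so no share of all genes stands beside that count. All 30 comparisons used the same 8 C57BL/6J control mice. Of 60 comparisons within a diet, groups were apart in 3: Slc20a1 in BALB/cJ under CR, Slc20a2 in C3H/HeJ under CR and Alpl in C3H/HeJ control hearts, which ran from 7.03 to 7.71 against 6.03 to 6.89 in C57BL/6J (3.51% of all genes apart).

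The next question was what CR did to these genes. Averaged over the 7 strains, 0 of 5 members passed the test, while 12.0% of all genes did. The CR minus control differences were 0.20 for Mgp (95% interval 0.02 to 0.38, adjusted p = 0.136), 0.16 for Alpl (0.03 to 0.28, adjusted p = 0.0831) and 0.08 for Slc20a2 (-0.04 to 0.20, adjusted p = 0.462). They were -0.17 for Slc20a1 (-0.31 to -0.03, adjusted p = 0.103) and -0.10 for Abcc6 (-0.18 to -0.03, adjusted p = 0.0633). All but Slc20a2 had intervals that left out 0 before adjustment. With array weights, which give less weight to arrays that fit their group poorly, 22.5% of all genes passed and 4 of 5 members did: Slc20a1 at -0.19 (adjusted p = 0.000928), Alpl at 0.14 (0.0236), Abcc6 at -0.10 (0.0350) and Mgp at 0.20 (0.0396).

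Within strains, 2 of 35 member-by-strain CR effects were called. Alpl in C57BL/6J rose from a median of 6.23 (6.03 to 6.89) in control hearts to 6.96 (6.04 to 7.38) in CR hearts, a difference of 0.58 ± 0.16 (SE) with an adjusted p of 0.0216, where 4.91% of all genes were called. Mgp in B6C3F1/J rose from a median of 8.51 (8.14 to 9.71) to 9.32 (8.53 to 10.12), a difference of 0.67 ± 0.24 (SE) with an adjusted p of 0.0412, where 14.2% of all genes were called. The ranges of both diets overlapped in both cases. Mgp in C57BL/6J had a difference in the other direction, -0.60 (95% interval -1.07 to -0.14, adjusted p = 0.122), which was not called. The methods' t-test, which takes its spread from the mice of 1 strain alone, gave other calls after Benjamini-Hochberg adjustment over all genes: Alpl (0.40, adjusted p = 0.0138) and Mgp (0.39, adjusted p = 0.0284) in 129S1/SvImJ, where limma gave adjusted p-values of 0.234 and 0.563. The former test called 6.95% of all genes in 129S1/SvImJ. No member was called in 129S1/SvImJ (2.30% of all genes), CBA/J (0.181%), DBA/2J (0.0702%), C3H/HeJ (0.0301%) or BALB/cJ (0%).

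The atrial markers moved with both effects. In C57BL/6J the atrial marker mean was 9.97 in control hearts and 7.94 in CR hearts, with 7 of 8 and 3 of 8 hearts atrial-rich. In B6C3F1/J it went the other way, from 7.71 to 8.88, with 2 and 5 hearts atrial-rich. With the atrial and fat marker means as covariates the Alpl effect in C57BL/6J was 0.28 (adjusted p = 0.316), and the Mgp effect in B6C3F1/J was 0.38 (adjusted p = 0.0294). With macrophage and lymphocyte marker means the Mgp effect was 0.27 (adjusted p = 0.249), and without B6C3F1/J CR replicate 2 it was 0.72 (adjusted p = 0.0650).

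The F test for strain by diet called 0 of 5 members (0.712% of all genes) and the lowest adjusted p was 0.183, for Mgp. Against the CR effect in C57BL/6J, the effect in B6C3F1/J was higher by 1.28 ± 0.33 (SE) for Mgp (adjusted p = 0.0166) and differed by -0.75 ± 0.23 (SE) for Alpl (adjusted p = 0.0321), where 8.60% of all genes were called. With atrial and fat marker means as covariates these were 0.44 (adjusted p = 0.166) for Mgp and -0.36 (adjusted p = 0.233) for Alpl. No member was called against C57BL/6J in CBA/J (0.441% of all genes), BALB/cJ (0.0953%), 129S1/SvImJ (0.0502%), C3H/HeJ (0.0502%) or DBA/2J (0.0451%).

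**Figure D4:**
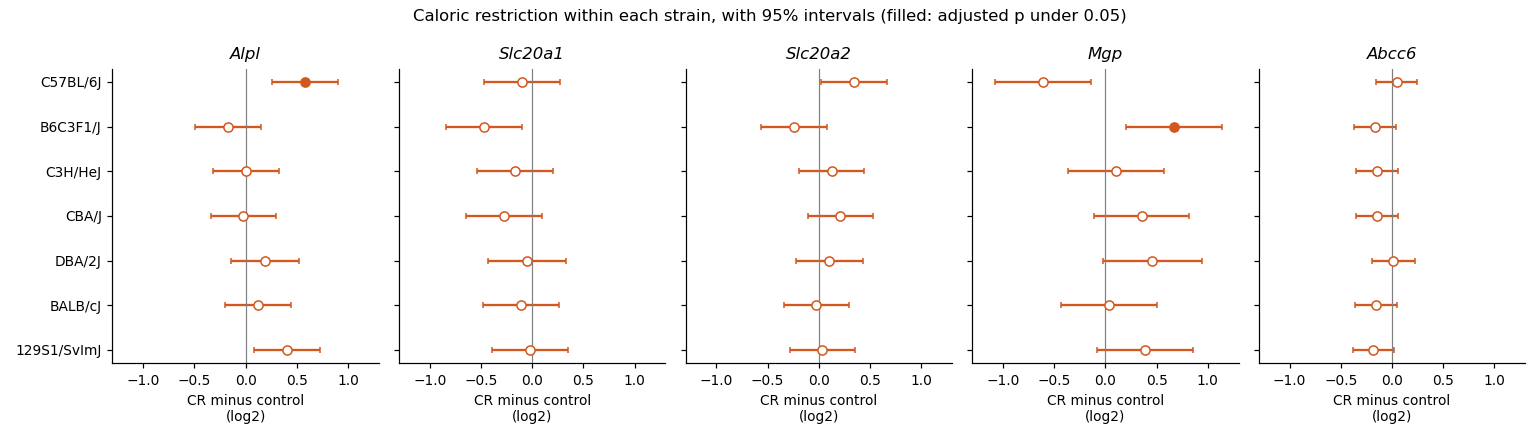
CR minus control difference in log2 signal for each member within each strain, with 95% confidence intervals as bars and filled points where the adjusted p was under 0.05. Most intervals cross 0, and the called effects are Alpl in C57BL/6J (0.58) and Mgp in B6C3F1/J (0.67).

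The other genes of the same pathways were taken from 6 lists with 70 measured genes, read here by their F test among strains, where 75.6% of all genes were called. Marker covariates were read for the members only, so the part of sample makeup in the differences of these genes was not tested. C57BL/6J had the most atrial-rich hearts and the highest white adipocyte markers, as given above. Of the pyrophosphate and purine genes 7 of 9 were called (77.8%). Ank, which exports pyrophosphate, was higher than in C57BL/6J in 4 strains, most in 129S1/SvImJ (0.55, adjusted p = 2.06e-06). Nt5e, which makes adenosine from AMP, was higher in 129S1/SvImJ (0.63) and BALB/cJ (0.34) and lower in CBA/J (-0.33) and B6C3F1/J (-0.33). Entpd2, an enzyme that removes extracellular ATP, was lower in DBA/2J (-0.58) and in 129S1/SvImJ (-0.40), and the nucleoside carrier Slc29a1 was higher in all 6 strains, by 0.15 to 0.31.

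Of the mineral inhibitor and vitamin K genes 11 of 12 were called (91.7%). Car2, a carbonic anhydrase, was lower than in C57BL/6J in all 6 strains, from -0.82 in B6C3F1/J to -1.91 in 129S1/SvImJ. Sparc, a collagen-binding matrix protein of bone, was higher in 5 strains, most in DBA/2J (0.58). The bone-forming genes were called in 14 of 17 (82.4%). Bmp4, a bone morphogenetic protein, was higher in every strain but 129S1/SvImJ, most in CBA/J (1.05, adjusted p = 3.74e-17). Dlx5, an osteoblast transcription factor, was higher in every strain but B6C3F1/J, most in CBA/J (0.58). Dlx5 was dim, with a mean signal of 4.71 against 5.75 for the median gene. The cartilage and bone cell markers had a mean signal of 4.55 over all hearts with 1 of 7 above the median gene, and their mean differed from C57BL/6J by -0.15 to -0.01.

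The phosphate and vitamin D genes were called in 8 of 14 (57.1%), the lowest share of the lists. Xpr1, the phosphate exporter, was higher in all 6 strains and most in C3H/HeJ, by 0.76 (adjusted p = 4.71e-17), the strain in which the importer Slc20a2 was also highest. Stc2, a stanniocalcin, was higher in 5 strains, most in BALB/cJ (0.69), and Pth1r, the parathyroid hormone receptor, was lower in all 6 strains, from -0.19 to -0.30. Of the osteopontin receptors 8 of 9 were called (88.9%). Cd44 was lower in 129S1/SvImJ (-0.65), C3H/HeJ (-0.42), B6C3F1/J (-0.41) and CBA/J (-0.31). Itgb3 was lower in 129S1/SvImJ (-0.63), CBA/J (-0.55) and BALB/cJ (-0.40). Of the Abcc transporter family 6 of 9 were called (66.7%), and every such call against C57BL/6J was higher, as with Abcc5 in BALB/cJ (0.45).

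Under CR, averaged over strains, 9 of these 70 genes were called, against 12.0% of all genes. The osteopontin receptors held 4 of them: the integrin subunit Itga9 was higher (0.25), and Itgb5 (-0.20), Itga5 (-0.21) and Itgav (-0.15) were lower. Ank was higher by 0.21 (adjusted p = 0.00304) and Bmp4 by 0.25 (adjusted p = 0.000218). Sparc was lower (-0.17, adjusted p = 3.77e-05), as were Abcc4 (-0.10) and Entpd2 (-0.08). None of the 14 phosphate and vitamin D genes was called.

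**Figure D5:**
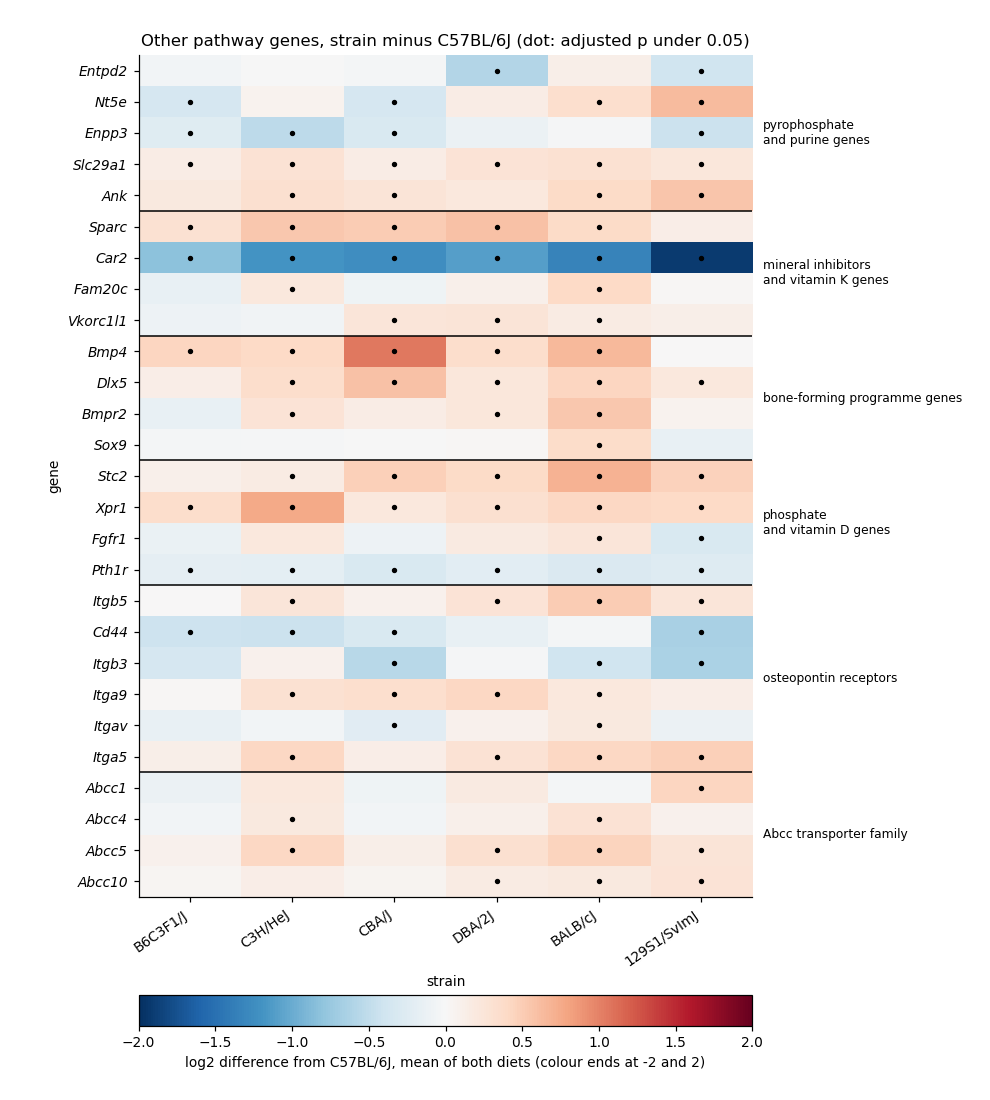
Difference in log2 signal from C57BL/6J, averaged over both diets, for the named genes of the 6 pathway lists (rows) in the 6 other strains (columns), with blue lower and red higher on a scale from -2 to 2 and a dot where the adjusted p was under 0.05. Car2 is lower in every strain, Xpr1 and Slc29a1 are higher in every strain, and Bmp4 is highest in CBA/J.

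The genes whose 14 group means ran most like those of each member are given by Pearson's r across the groups, as a description over points that share strains and diets. For Mgp they were Kcnt2 (0.95), Npr3 (0.93) and Chrdl1 (0.92). For Alpl they were Kmt5a (0.96), Tigar (0.95) and Fbxw5 (0.95). For Slc20a2 they were Daam1 (0.98), Rbfox2 (0.97) and Ppm1l (0.95), for Slc20a1 Plekhm1 (0.96), Tbc1d10a (0.95) and Rufy3 (0.95), and for Abcc6 Prkag3 (0.95), Maz (0.95) and Krtap9-3 (0.93). Among the members themselves the highest such r was 0.65, between Abcc6 and Slc20a1, and Mgp ran against all 4 others, from -0.23 with Alpl to -0.45 with Abcc6.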

How the data were processed

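RNA from each of 112 hearts was hybridised to its own Affymetrix Mouse Gene 1.0 ST array, with 5 µg of total RNA labelled. The authors computed the log2 signals with the gene-level RMA-Sketch method of Affymetrix Expression Console, and these deposited log2 values were used as they stand. The sources used here state neither its version nor the genome build. The platform annotation paired 21789 of the 35556 probe sets with 1 symbol and 1621 with several, and 12146 were unnamed. The brightest probe set of each symbol gave 19938 genes. The annotation can be old, and coordinates and promoters come from RefSeq.

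The 14 strain-by-diet groups were fitted without DBA/2J CR replicate 7, which stood far apart (the study also used 7 of the 8 mice of that group), using limma 3.58.1 in R 4.3.3, with Benjamini-Hochberg adjustment over all genes and a threshold of 0.05. Figures were drawn with matplotlib 3.10.9. The fit was tested on simulated data. The number of arrays limits the precision, and p-values describe the spread between mice. Genes named were the members, the 3 genes most like each across group means, the 5 measured neighbours of Abcc6 on each side, and from each pathway list up to 4 genes with the smallest p among strains and every gene called by diet. The members and lists were chosen with earlier results of these data known. Alternatives covered the array left out, the normalization, dim genes under the 40th percentile, the probe set rule, the variance model, array weights, the replicate block, marker covariates, arrays that stand apart, the test and the strains in the fit. Replicate numbers do not pair mice: deviations of same-numbered arrays of different groups had a median correlation of 0.0081, and those of differently numbered arrays 0.0056.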

Additional observations from a re-analysis of the deposited data

Results flagged for a closer look

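Of 70 sets of a member in 1 strain-by-diet group, 10 held a highest or lowest heart far from the rest of its group by Dixon's criterion, where chance alone gives about 1 in 20. CBA/J control replicate 1 accounted for 4 of them, with a high Mgp signal of 9.17 and low signals of 6.43 for Alpl, 6.13 for Slc20a1 and 7.76 for Slc20a2. For Slc20a1 the low hearts of B6C3F1/J were control replicate 7 at 6.6 and CR replicate 2 at 5.27. For Slc20a2 they were C57BL/6J CR replicate 4 at 8.63 and DBA/2J control replicate 5 at 9.24. All 5 of these arrays also stood apart from the other arrays over all genes. In 129S1/SvImJ control hearts, Mgp was high in replicate 8 at 8.53 and Slc20a1 was high in replicate 7 at 8.12, and neither array stood apart.

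The CR effect in B6C3F1/J minus that in C57BL/6J was 1.28 for Mgp and -0.75 for Alpl, and both passed the test of the difference itself, as described above with the atrial markers.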

How the results depend on the processing

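The 21 called strain differences over both diets kept their direction under every alternative run, and all 21 stayed called with a second quantile normalization, a filter on dim genes, averaged probe sets per gene, trended and robust variance, the replicate block and without the arrays that stand apart. Of the 21, 5 lost their call with DBA/2J CR replicate 7 included, 1 with arrays centred on their median, 3 with array weights, 3 with only the 2 strains compared and 1 without C57BL/6J CR replicate 4. Marker covariates ended 6 (atrial and white adipocyte), 1 (smooth muscle and fibroblast), 8 (macrophage and lymphocyte) and 12 (atrial, white adipocyte, smooth muscle and fibroblast). The last set and the fits without 1 array that stands apart were added after the data were seen. Causes were not tested. With the replicate block, the count of called member-by-strain differences in CR hearts was 9 in place of 10 (Slc20a1 in 129S1/SvImJ, adjusted p = 0.0534), and no other call changed. Because replicate numbers do not pair mice, the block is only a check; same-number correlations ran from -0.61 to 0.67. Probe binding and sample makeup limit these values, and Abcc6 lies below the median gene in signal.

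The counts that moved by over 1.5 times are given by setting, beside their values in the report (4 members called in C3H/HeJ and in DBA/2J, 5 in 129S1/SvImJ, 2 in CBA/J and in B6C3F1/J, 22 of 30 in control hearts, 10 of 30 in CR hearts, 0 for CR over strains, 2 of 35 for CR within strains, 0 for strain by diet, 2 of 30 for CR effects against C57BL/6J and 1 for the hybrid against its parents). With DBA/2J CR replicate 7, 2 members were called in DBA/2J, 1 in B6C3F1/J, 5 of 30 in CR hearts, and 0 within strains, against C57BL/6J and for the hybrid. The hybrid count was 0 with a second quantile normalization and with median centring. With a filter on dim genes 1 member was called for CR over strains. With array weights 4 were called for CR over strains, 8 of 35 within strains, 3 for strain by diet and 17 of 30 for CR effects against C57BL/6J. The share of all genes called for CR over strains was also higher with array weights, as given above. Shares of all genes moved between settings too, so none of the counts by setting is read as a result about the members. No share of all genes is given beside the other counts with array weights. The same holds for the counts without the arrays that stand apart. Without the arrays that stand apart 4 were called in CBA/J, 2 for CR over strains, 4 within strains, 3 for strain by diet, 15 of 30 against C57BL/6J and 0 for the hybrid. With only the 2 strains compared 1 was called in CBA/J. The methods' t-test, on log2 signals, at an unadjusted p under 0.01 called 4 of 35, and 2 after Benjamini-Hochberg. Of all genes, 1.4% (DBA/2J) to 10.6% (129S1/SvImJ) had such an unadjusted p.

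With atrial and white adipocyte covariates 2 members were called in C3H/HeJ and in DBA/2J, 1 in B6C3F1/J, 11 of 30 in control hearts, 6 of 30 in CR hearts, 3 for CR over strains and 0 for CR effects against C57BL/6J. Of all genes, that fit called 30% in C3H/HeJ, 37.6% in DBA/2J, 25.9% in B6C3F1/J and 15.3% for CR over strains. With smooth muscle and fibroblast covariates 2 were called for CR over strains (15.4% of all genes) and 0 against C57BL/6J. With macrophage and lymphocyte covariates 0 were called in 129S1/SvImJ, 1 in B6C3F1/J, 12 of 30 in control hearts, 1 for CR over strains, 1 of 35 within strains and 0 against C57BL/6J. Of all genes, that fit called 23.5% in 129S1/SvImJ, 24.1% in B6C3F1/J and 12.5% for CR over strains. With all 4 of the other marker lists 1 was called in 129S1/SvImJ, in CBA/J and in B6C3F1/J, 2 in C3H/HeJ and in DBA/2J, 8 of 30 in control hearts, 3 for CR over strains, 0 against C57BL/6J and 2 for the hybrid. Of all genes, that fit called 23% in 129S1/SvImJ, 23.6% in C3H/HeJ and 25.1% in DBA/2J. It called 27.2% in CBA/J, 27.5% in B6C3F1/J and 17.8% for CR over strains. In these marker fits no share of all genes is given within control or CR hearts. A fall in those counts is thus not read as particular to the members. Without 1 array that stands apart, the counts ran from 1 to 2 in B6C3F1/J, 2 to 4 in CBA/J, 7 to 13 of 30 in CR hearts, 0 to 1 for CR over strains, 1 to 4 of 35 within strains, 0 to 1 for strain by diet, 1 to 4 of 30 against C57BL/6J and 0 to 1 for the hybrid. Over the same fits, 101 to 653 of all 19938 genes were called for strain by diet and 2276 to 3031 for CR over strains.

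The differences that changed sign had not been called in the report, except where stated. For Mgp with atrial and white adipocyte covariates they were 0.0823 in CBA/J, 0.0680 in DBA/2J and 0.0779 in B6C3F1/J over both diets and 0.24 in C3H/HeJ control hearts. With macrophage and lymphocyte covariates Mgp was 0.50 in CBA/J and 0.26 in B6C3F1/J over both diets, 0.30 in C3H/HeJ, 0.43 in CBA/J (called lower in the report) and 0.0598 in B6C3F1/J (called lower in the report) in control hearts, and 0.0678 for the hybrid. Of these, the CBA/J value over both diets was called higher (limma, adjusted p = 0.000687). With smooth muscle and fibroblast covariates it was -0.30 in C3H/HeJ, called lower (limma, adjusted p = 0.000724), and 0.0570 for the hybrid. With the 4 lists together it was -0.0160 in C3H/HeJ, 0.00703 in DBA/2J and 0.0299 in B6C3F1/J over both diets, 0.0424 in C3H/HeJ control hearts and 0.0379 for the hybrid. Without 1 array that stands apart Mgp in C3H/HeJ ran from -0.0608 (without its control replicate 6) to 0.130.

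Slc20a1 in B6C3F1/J was 0.0367 over both diets without the arrays that stand apart, and from -0.144 to 0.0173 (without its CR replicate 2) without 1 of them. In control hearts it was -0.0374, -0.0696 and -0.105 with atrial and white adipocyte, macrophage and lymphocyte, and the 4 lists as covariates. Slc20a2 in CBA/J was -0.0512, -0.120 and -0.116 over both diets and -0.0531, -0.215 and -0.168 in control hearts under the same covariates. Slc20a2 was 0.00294 for the hybrid with median centring and -0.00322 for CR over strains with DBA/2J CR replicate 7.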
